A study of Mus musculus with 22 samples.

Results

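The 34 genes described here encode chains of the basement membrane, the sheet of matrix on which an epithelium rests and which also wraps each muscle cell, together with the receptors that bind it. They were chosen by gene symbol from the known parts of the sheet, and all 34 were found among the 26202 symbols of the table. The study sequenced RNA of the developing mouse trachea, as whole organs at E11.5 and as sorted cell populations at E13.5. The E11.5 groups were 5 Wnt5a f/f control libraries and 4 Dermo1Cre; Wnt5a f/f mutant libraries, in which the recombinase acts in the mesenchyme and leaves the epithelium untargeted. The E13.5 cells all carried the smooth muscle reporter gamma SMA eGFP and were sorted as EpCAM-positive epithelium (2 libraries), reporter-positive muscle (2 libraries) or cells negative for both, a gate enriched in chondroblasts (2 control and 3 Notum 150/150 mutant libraries). The labels list 3 epithelium, 3 muscle, 3 control chondroblast and 4 Notum mutant samples. Each sorted group thus has fewer libraries here than the study sequenced, because some columns could not be matched to a label. The labels give the sorted controls as Bmp4 f/f or Notum 300/300, but the columns do not say which library is which. Each sample pooled 5 tracheas, and the sorted control libraries of each population carry an earlier and a later date.

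Laminins are trimers of an alpha, a beta and a gamma chain and form the first network at the cell surface. Type IV collagen forms a second network, and nidogens and the heparan sulphate proteoglycans perlecan and agrin join both. Cells hold the sheet through integrins and dystroglycan, and in developing organs the epithelium and the mesenchyme supply different parts of it.

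Levels are CPM, counts scaled to the size of the library by TMM, and differences are log2 fold changes with their standard error (SE) from edgeR's quasi-likelihood test, called at a Benjamini-Hochberg adjusted p under 0.05 over all genes tested. Total counts were 6880660 to 21678177 per library, so 3 counts, taken as the floor, came to 0.138 to 0.436 CPM before scaling. The epithelial markers summed to 4131 and 4932 CPM in the epithelium libraries and to 33.7 to 55.2 CPM in the other sorted controls, and the smooth muscle markers to 11450 and 14650 CPM in muscle and to 88.3 to 153 CPM elsewhere. The chondroblast markers separated less, with 2950 and 2647 CPM in the earlier and later control chondroblasts and 995 and 2011 CPM in muscle, and Sox9, the cartilage regulator, stood at 220.0 and 690.1 CPM in chondroblasts and 206 and 457 CPM in muscle. Of these markers, Col2a1 stood at 1213 and 912 CPM in the earlier and later control chondroblasts, but the cartilage matrix genes Acan (12.98 and 8.07 CPM) and Matn1 (10.1 and 0 CPM) were low. The earlier muscle library also held skeletal muscle markers, 9 of 9 at 1 CPM or more and 879 CPM in sum against 77.5 CPM in the later one. The earlier epithelium library held macrophage markers (273 CPM against 0.262 CPM), and the earlier control chondroblasts red cell genes (79890 CPM against 7991 CPM). Wnt5a stood at 57.7 to 162 CPM in the E11.5 controls and 46.5 to 127 CPM in the mutants, and Notum at 13.8 and 86.1 CPM in control and 13.9 to 35.6 CPM in mutant chondroblasts. Both overlapped, and counts over a whole gene do not check alleles that may still be transcribed.

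The first question was which sorted population makes each chain. Of the 34 genes, 28 passed the filter on low values in the sorted libraries, and 6 of them differed between epithelium and the mean of the mesenchymal populations. Lama5 and Npnt were higher in the epithelium, where 2.4% of the 13687 genes tested were called, and Lama4, Nid1, Nid2 and Itga1 were higher in the mesenchyme, where 2.75% were called. The median log2 difference of the 28 was -0.44, against -0.02 over all genes tested. Col4a3, Col4a4, Lama3, Lamc3, Itga7 and Itgb4 did not pass the filter. Genes induced by cell handling also differed between these populations, with a sum of 10330 and 14040 CPM in the epithelium and 2953 to 7843 CPM in the mesenchyme (7 of 7 at 1 CPM or more in each), and their part in the differences was not tested. In bulk libraries, fewer cells of a type and less RNA per cell cannot be told apart.

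**Figure D1:**
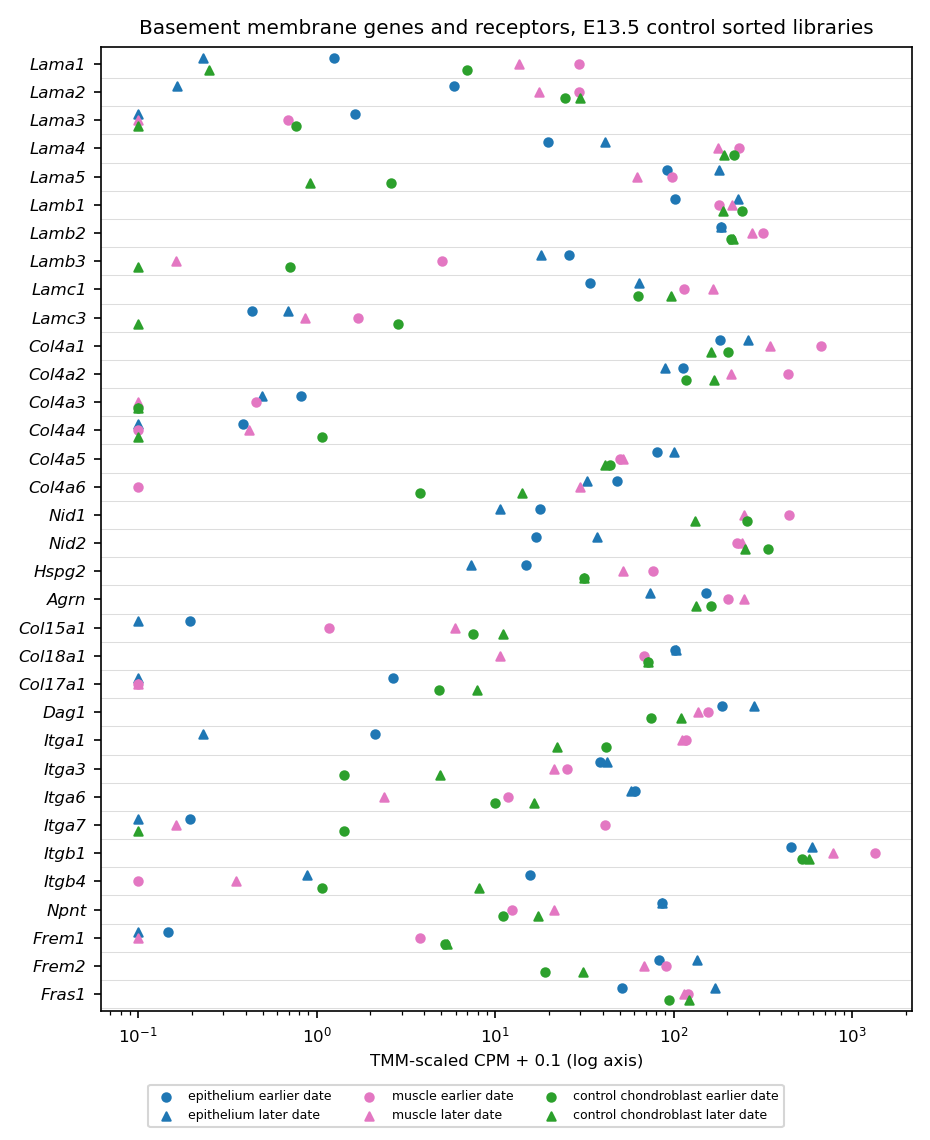
Level of each of the 34 genes in the 6 sorted E13.5 control libraries, as TMM-scaled CPM plus 0.1 on a log axis. Colours mark the population, circles the earlier and triangles the later date, and the epithelium points of Nid1, Nid2, Lama4 and Itga1 lie to the left of all mesenchymal points.

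Among the laminin alpha chains, Lama5 (chromosome 2, 180176373 to 180225859, minus strand, GRCm38) encodes the long chain typical of mature epithelial basement membranes. It stood at 91.2 and 180.4 CPM in the epithelium, 97.3 and 62.0 CPM in muscle, and 2.50 and 0.822 CPM in chondroblasts, in the order earlier and later date. Epithelium and muscle overlapped, and both chondroblast libraries lay far below. The epithelium exceeded the mesenchymal mean by 3.55 (SE 0.47) on the log2 scale, with an edgeR adjusted p of 0.0121. Muscle exceeded chondroblasts by 5.57 (SE 0.68), with an adjusted p of 0.0683, which missed the threshold.

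Lama4 (chromosome 10, 38965515 to 39110188, plus strand), the chain of mesenchymal and vascular basement membranes, showed the opposite order. Its levels were 19.6 and 41.1 CPM in the epithelium, 232 and 177 CPM in muscle, and 218 and 192 CPM in chondroblasts. The mesenchymal libraries did not overlap the epithelium, and the log2 difference was -2.75 (SE 0.36, edgeR adjusted p = 0.0120). Lama2, the chain of muscle laminin, stood at 5.75 and 0.0654 CPM in the epithelium and at 17.5 to 29.8 CPM in the 4 mesenchymal libraries. Lama1, a chain of early embryonic basement membranes, stood at 29.2 and 13.51 CPM in muscle, above the 0.131 to 6.85 CPM of the other 4 libraries. Neither Lama1 (adjusted p = 0.316) nor Lama2 (adjusted p = 0.299) passed the test, and Lama3 did not exceed 1.53 CPM in any sorted control library.

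Per kilobase of exon, the scale on which levels of different genes can be compared, Lama5 made up 66.2% and 69.9% of the alpha chain RNA in the epithelium. In muscle its share was 16.1% and 14.3%, and in control chondroblasts 0.555% and 0.207%. Lama4 held 72.4% and 77.2% of the alpha chain RNA in muscle and 91.2% and 91.1% in chondroblasts. The whole E11.5 control tracheas had 61.2% to 79.2% Lama4 and 4.10% to 17.3% Lama5, above the Lama5 share of the chondroblasts and below that of the epithelium.

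**Figure D2:**
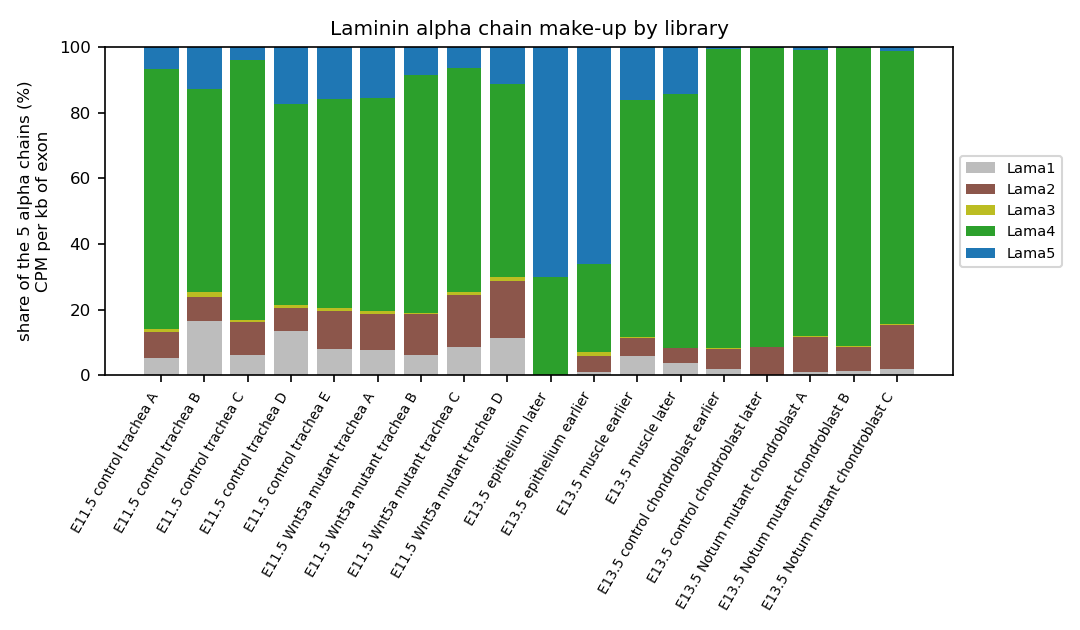
Share of each laminin alpha chain in the summed CPM per kilobase of the 5 chains, 1 bar per library, in percent. Lama5 (blue) fills 66.2% and 69.9% of the epithelium bars and at most 1.08% of the chondroblast bars, where Lama4 (green) dominates.

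The beta and gamma chains were shared more widely. Lamb1 ran from 102 to 242 CPM over the 6 sorted control libraries, with overlap between all populations. Lamb2 stood at 184.1 and 184.0 CPM in the epithelium, 318 and 276 CPM in muscle, and 210.5 and 215 CPM in chondroblasts. Muscle was highest and epithelium lowest, but the difference of -0.44 (SE 0.15) between epithelium and mesenchyme did not pass (edgeR adjusted p = 0.185). Lamb3, a chain of the laminin that anchors epithelia, stood at 25.8 and 18.04 CPM in the epithelium, 4.92 and 0.0631 CPM in muscle, and 0.613 and 0 CPM in chondroblasts. The epithelium lay above the other 4 libraries, while muscle and chondroblasts overlapped, and the fitted difference was wide, at 4.63 (SE 1.69, adjusted p = 0.199). Lamc1, the common gamma chain, made up 94.6% to 100% of the gamma chain RNA per kilobase in the sorted controls, with the highest levels in muscle (114 and 166 CPM). Lamc3 stayed at or under 2.76 CPM in these 6 libraries.

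The type IV collagen genes lie head to head in pairs, and the promoters of both pairs that the reference held on each side are shown. Any part of these promoters in the levels of the genes was not tested. Each line gives 250 bases before to 50 bases after the RefSeq start (GRCm38.p6), read 5′ to 3′ on the gene's own strand, with CCAAT and GGGCGG on either strand in capitals. The windows are chr8:11312777-11313076 (minus) for Col4a1, chr8:11312555-11312854 (plus) for Col4a2, chrX:141475169-141475468 (plus) for Col4a5 and chrX:141474027-141474326 (minus) for Col4a6.
Col4a1: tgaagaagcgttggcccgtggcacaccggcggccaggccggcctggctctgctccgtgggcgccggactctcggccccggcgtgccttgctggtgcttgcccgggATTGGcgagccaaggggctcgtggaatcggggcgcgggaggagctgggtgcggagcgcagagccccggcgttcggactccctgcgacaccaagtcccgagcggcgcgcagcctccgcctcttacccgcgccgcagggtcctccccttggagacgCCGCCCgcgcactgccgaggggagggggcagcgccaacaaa
Col4a2: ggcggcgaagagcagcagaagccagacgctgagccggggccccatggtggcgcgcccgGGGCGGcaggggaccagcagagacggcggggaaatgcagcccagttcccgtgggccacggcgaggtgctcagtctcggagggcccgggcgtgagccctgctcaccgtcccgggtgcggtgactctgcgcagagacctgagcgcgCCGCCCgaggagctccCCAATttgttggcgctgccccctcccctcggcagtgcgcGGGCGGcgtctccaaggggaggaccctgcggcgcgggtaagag
Col4a5: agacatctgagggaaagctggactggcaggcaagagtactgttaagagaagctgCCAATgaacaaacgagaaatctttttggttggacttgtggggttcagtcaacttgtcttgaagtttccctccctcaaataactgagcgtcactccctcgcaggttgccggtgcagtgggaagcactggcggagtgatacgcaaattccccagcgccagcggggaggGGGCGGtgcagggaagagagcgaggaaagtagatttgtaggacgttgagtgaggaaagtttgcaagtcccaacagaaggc
Col4a6: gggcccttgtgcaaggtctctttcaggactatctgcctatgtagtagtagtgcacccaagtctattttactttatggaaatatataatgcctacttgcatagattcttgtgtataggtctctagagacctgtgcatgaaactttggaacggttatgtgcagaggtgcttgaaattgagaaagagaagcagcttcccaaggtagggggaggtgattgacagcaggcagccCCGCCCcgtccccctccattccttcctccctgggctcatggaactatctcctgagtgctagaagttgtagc

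The Col4a1 and Col4a2 starts are 21 bases apart, and their windows overlap by 78 bases. The Col4a5 and Col4a6 starts are 1343 bases apart. The letters CCAAT on either strand occur in 37.4% and GGGCGG in 35.7% of the 32851 promoters of this length in the reference table. No 2 matches overlap within a window. The GGGCGG match of Col4a1 and the last one of Col4a2 are the same site, in the bases that both windows hold. Col4a1, Col4a2 and Col4a5 held both, and Col4a6 held GGGCGG alone. A match describes the letters in the window and not the binding of a factor.

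Col4a1 and Col4a2 encode the chains of the ubiquitous collagen IV trimer. Col4a1 stood at 182 and 261 CPM in the epithelium, 666 and 349 CPM in muscle, and 202 and 163 CPM in chondroblasts. Col4a2 stood at 113 and 88.9 CPM, 439 and 210.0 CPM, and 118 and 167 CPM in the same order. Both were highest in the earlier muscle library, which also held the skeletal muscle markers, and the later muscle library still lay above every epithelium and chondroblast library for both genes. Muscle exceeded chondroblasts by 1.496 (SE 0.35, edgeR adjusted p = 0.464) for Col4a1 and 1.21 (SE 0.39, adjusted p = 0.754) for Col4a2, neither of which passed.

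The ratio of Col4a1 to Col4a2 per kilobase ran from 0.947 to 2.86 over the 18 libraries, with a median of 1.63, while Col4a1 itself ran from 61.7 to 666 CPM. Col4a5 and Col4a6 encode chains that form a trimer of their own in some basement membranes, such as those around smooth muscle. Their ratio ran from 1.70 to 36.4 over the 17 libraries in which Col4a6 exceeded 3 counts. Col4a6 was at 0 in the earlier muscle library, where Col4a5 stood at 49.7 CPM, and at 29.6 CPM in the later one. Col4a5 was highest in the epithelium, at 80.4 and 101 CPM against 41.2 to 51.7 CPM in the mesenchyme, with a difference of 0.98 (SE 0.23, edgeR adjusted p = 0.0714) that missed the threshold. Col4a6 stood at 48.2 and 32.8 CPM in the epithelium and at 3.68 and 14.1 CPM in chondroblasts, and the epithelium lay above every other sorted control library. Col4a3 and Col4a4, the chains paired with Col4a5 in kidney and some other organs, did not exceed 0.971 CPM in any sorted control.

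**Figure D3:**
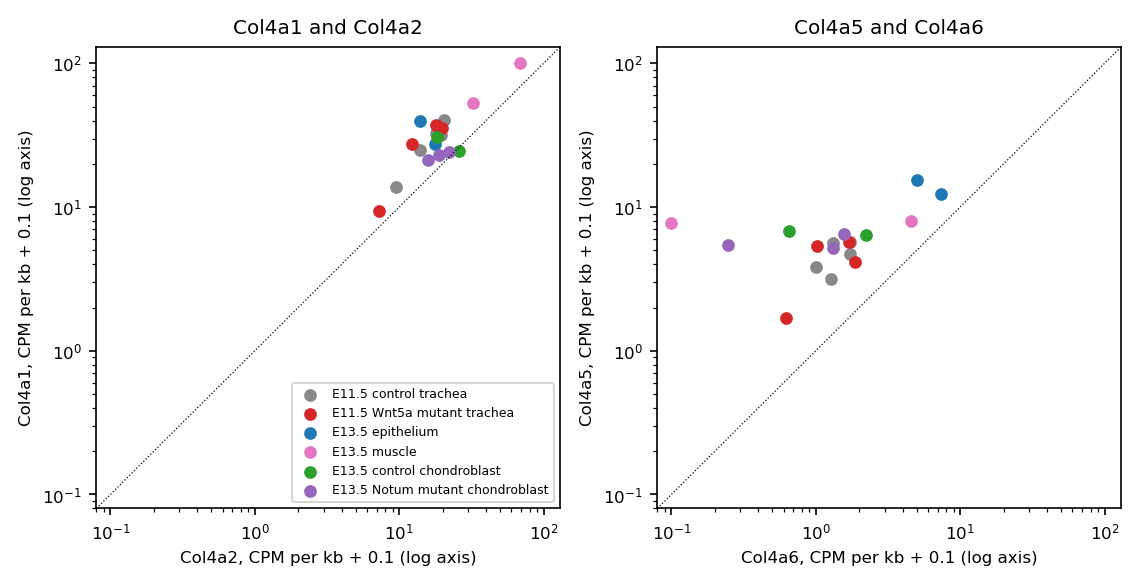
Col4a1 against Col4a2 (left) and Col4a5 against Col4a6 (right) in the 18 libraries, as CPM per kilobase of exon plus 0.1 on log axes, with colours for the groups and a dotted line of equality. Most left points lie above the line (ratio 0.947 to 2.86), and on the right 1 muscle library has no Col4a6.

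The nidogens, which bridge laminin and collagen IV, were the clearest mesenchymal products. Nid1 (chromosome 13, 13437551 to 13512269, plus strand) stood at 17.7 and 10.6 CPM in the epithelium, 443 and 248 CPM in muscle, and 256 and 132 CPM in chondroblasts. Nid2 (chromosome 14, 19751265 to 19811787, plus strand) stood at 16.9 and 37.0 CPM, 227 and 243 CPM, and 338 and 252 CPM in the same order. The mesenchymal libraries did not overlap the epithelium for either gene. The differences were -4.17 (SE 0.48) for Nid1 and -3.28 (SE 0.38) for Nid2, both with an edgeR adjusted p of 0.00803, and both were called with any 1 library left out. Muscle had the most Nid1 and chondroblasts the most Nid2, but neither gene differed between these populations (adjusted p = 0.989 for Nid1 and 1 for Nid2). The last exons of Nid2 overlap those of Rtraf on the other strand over 8.96% of its exon length, and the strand setting of the counting is not given in the sources used here.

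Of the proteoglycans, Hspg2 (perlecan) stood at 14.7 and 7.26 CPM in the epithelium, 76.1 and 51.9 CPM in muscle, and 31.4 and 31.2 CPM in chondroblasts. The populations did not overlap, and the epithelium fell short of the mesenchyme by a log2 difference of -2.01 (SE 0.48), with an edgeR adjusted p of 0.0696. Agrn (agrin), which binds laminin and dystroglycan, stood at 152 and 74.1 CPM in the epithelium, 201 and 249 CPM in muscle, and 162 and 134 CPM in chondroblasts. Col15a1, a collagen of the outer face of muscle and vessel basement membranes, stood at 0.0958 and 0 CPM in the epithelium, 1.07 and 5.87 CPM in muscle, and 7.41 and 10.99 CPM in chondroblasts. Col18a1, whose end fragment is endostatin, stood at 102 and 103 CPM in the epithelium, 68.0 and 10.6 CPM in muscle, and 71.4 and 71.3 CPM in chondroblasts. Col17a1, the transmembrane collagen of hemidesmosomes, did not exceed 7.85 CPM, and its highest levels were in chondroblasts (4.75 and 7.85 CPM).

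Receptors divided between the populations. Itga1 (chromosome 13, 114953096 to 115101964, minus strand), the alpha chain of a collagen-binding integrin, stood at 2.01 and 0.131 CPM in the epithelium, 118 and 111 CPM in muscle, and 41.7 and 22.1 CPM in chondroblasts. The populations did not overlap, and the difference of epithelium from mesenchyme was -5.74 (SE 1.02, edgeR adjusted p = 0.0310). Gm49395, on the same strand, overlaps 4.11% of its exon length. Itga6 and Itga3, alpha chains of laminin-binding integrins, had their highest levels in the epithelium. Itga6 stood at 60.7 and 57.5 CPM in the epithelium, 11.7 and 2.27 CPM in muscle, and 9.91 and 16.4 CPM in chondroblasts. Itga3 stood at 38.5 and 42.4 CPM in the epithelium, 25.3 and 21.2 CPM in muscle, and 1.33 and 4.78 CPM in chondroblasts. In both genes the epithelium did not overlap the mesenchyme, and both missed the threshold, with differences of 2.63 (SE 0.67, adjusted p = 0.0826) for Itga6 and 2.28 (SE 0.59, adjusted p = 0.0891) for Itga3. Itga7, the laminin receptor of skeletal muscle, stood at 41.0 CPM in the earlier and 0.0631 CPM in the later muscle library, the same split as the skeletal muscle markers; whether the level comes from skeletal muscle cells was not tested.

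Itgb1, the common beta chain, ran from 457 to 781 CPM in 5 of the 6 libraries and reached 1345 CPM in the earlier muscle library. Itgb4, the hemidesmosome chain, stood at 15.6 and 0.785 CPM in the epithelium, so the 2 epithelium libraries differed widely. Dag1 (dystroglycan) stood at 187 and 282 CPM in the epithelium, 156 and 138 CPM in muscle, and 74.5 and 109 CPM in chondroblasts. The epithelium was higher by 1.02 (SE 0.25), with an adjusted p of 0.0711.

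Npnt (chromosome 3, 132881745 to 132950291, minus strand) encodes nephronectin, an integrin ligand laid down under epithelia. It stood at 85.8 and 85.9 CPM in the epithelium, 12.4 and 21.1 CPM in muscle, and 10.9 and 17.2 CPM in chondroblasts. The epithelium lay above all other libraries, by 2.50 (SE 0.38, edgeR adjusted p = 0.0184). The Fraser complex genes, whose products join the epithelial sheet to the mesenchyme, did not follow one pattern. Frem2 stood at 83.0 and 136 CPM in the epithelium, 90.1 and 68.5 CPM in muscle, and 18.9 and 30.9 CPM in chondroblasts. Fras1 ran from 51.3 to 170 CPM over the 6 libraries, and both its lowest and its highest level were in the epithelium. Frem1 was at or under 0.0479 CPM in the epithelium and at 5.16 and 5.31 CPM in chondroblasts.

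By the order of the libraries alone, 8 of the 28 genes tested had both epithelium libraries above the other 4 (Lamb3, Col4a5, Col4a6, Col18a1, Dag1, Itga3, Itga6 and Npnt), against 16.5% of all genes tested. Another 9 had both muscle libraries on top (Lama1, Lamb2, Lamc1, Col4a1, Col4a2, Hspg2, Agrn, Itga1 and Itgb1), against 10.7%. In 4 genes both chondroblast libraries were on top (Nid2, Col15a1, Col17a1 and Frem1), against 9.93%. The 9 genes with both epithelium libraries at the bottom were Lama2, Lama4, Lamb2, Col4a2, Nid1, Nid2, Hspg2, Col15a1 and Itga1, against 17.7%. Both muscle libraries were lowest for Col18a1 (8.16% of all genes tested), and both chondroblast libraries for Lama5, Col4a5, Dag1, Itga3 and Frem2 (5.85%).

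Between muscle and chondroblasts, edgeR called 0 of the 28 genes tested, with 0.132% of all genes called higher in muscle and 0% higher in chondroblasts. At an unadjusted p under 0.05, 7 were higher in muscle (Lama5, Frem2, Col4a1, Itga3, Itgb1, Col4a2 and Lamb2), where 3.19% of all genes were, and 1 was lower (Col17a1), where 2.6% were. With the date as a term, edgeR again called 0, and 0.175% of all genes. At an unadjusted p under 0.05, 12 were then higher in muscle and 0 lower, where 5.15% of all genes passed in either direction. DESeq2 called 4, namely Lama5, Frem2, Col4a1 and Itga3, all higher in muscle, and 1.86% of all genes in either direction. Frem2 was higher in muscle by 1.69 (SE 0.40) and Itga3 by 2.95 (SE 0.77) in the edgeR fit.

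Most calls between epithelium and mesenchyme changed when 1 library was left out. Without the earlier muscle library, Itga6 and Col18a1 took the place of Itga1 and Npnt. Lama5 and Npnt were lost without the later epithelium, Itga1 and Npnt without the later chondroblasts, and Lama5 and Itga1 without the later muscle library. Lama4, Npnt and Itga1 were lost without the earlier chondroblast library. Without the earlier epithelium library more of the 28 genes were called, and so was a larger share of all genes tested. Each of these fits leaves 1 library in 1 of the populations. DESeq2 called 15 of the 28 genes, all 6 of the edgeR calls among them, and it called 14.9% of all genes. With the date as a term, edgeR called 2 genes higher and 4 lower in the epithelium, and 4.05% of all genes.

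Other genes of the pathway were taken from a fixed list of 102, of which 94 were tested in the sorted libraries. Of these, 3 were higher in the epithelium (2.4% of all genes tested) and 22 in the mesenchyme (2.75%). Between muscle and chondroblasts edgeR called 0, with 13 higher (3.19% of all genes) and 3 lower (2.6%) in muscle at an unadjusted p under 0.05. Bcam, a receptor for the laminin alpha 5 chain, stood at 271 and 286 CPM in the epithelium, 80.6 and 49.6 CPM in muscle, and 15.8 and 21.67 CPM in chondroblasts, and was higher in the epithelium by 3.01 (SE 0.26, adjusted p = 0.00331). Dmd (dystrophin) was higher there by 2.22 (SE 0.29, adjusted p = 0.0113) and Sdc4, a syndecan, by 2.58 (SE 0.35, adjusted p = 0.0131). The collagen VI chains Col6a2 (-3.84, SE 0.23, adjusted p = 0.00153) and Col6a1 (-4.18, SE 0.31, adjusted p = 0.00261) and the gelatinase Mmp2 (-3.21, SE 0.22, adjusted p = 0.00228) led the mesenchymal side. By group, 10 of 19 matrix partners tested, 5 of 31 receptors and linkers, 4 of 13 collagen maturation genes, 3 of 11 turnover genes and 0 of 20 dystroglycan complex and glycosylation genes were higher in the mesenchyme.

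The E11.5 control tracheas were then set against each sorted population. Age, tissue handling and sorting differ together here and cannot be told apart, and whole tissue holds several populations. Against the epithelium, 7 of the 34 genes were higher at E11.5 (Lama1, Lama4, Nid1, Nid2, Col15a1, Itga1 and Frem1; 7.43% of 14971 genes tested) and 5 were lower (Lama5, Lamb2, Col4a5, Dag1 and Frem2; 5.23%). Against muscle, 3 were higher (Col18a1, Itga6 and Npnt; 4.33%) and 10 were lower (Lama4, Lamb2, Lamc1, Col4a1, Col4a2, Hspg2, Agrn, Itga1, Itgb1 and Frem2; 4.96%). Against chondroblasts, 3 were higher (Lama5, Itga3 and Npnt; 1.9%) and 2 were lower (Lamb2 and Nid2; 2.53%).

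The genes called higher in the trachea than in the epithelium included Nid1, Nid2, Lama4 and Itga1, the 4 called higher in the mesenchyme at E13.5. Both comparisons use the same epithelium libraries, so they are not independent of each other. In control tracheas A to E, Nid1 stood at 227, 209, 183, 187 and 119 CPM and exceeded the epithelium by 3.72 (SE 0.41, edgeR adjusted p = 0.000391). Nid2 stood at 149, 138, 121, 146 and 95.6 CPM, above the epithelium by 2.29 (SE 0.31, adjusted p = 0.00125) and below chondroblasts (-1.15, SE 0.26, adjusted p = 0.0306). Both nidogens lay far above the epithelium in every trachea. Lama4 stood at 126.0, 89.3, 123.8, 73.6 and 68.0 CPM, above the epithelium by 1.69 (SE 0.34, adjusted p = 0.0104) and below muscle (-1.08, SE 0.29, adjusted p = 0.0431). Itga1 stood at 11.1, 15.5, 17.97, 8.23 and 15.2 CPM, above the epithelium by 3.63 (SE 0.75, adjusted p = 0.0120) and below muscle (-3.06, SE 0.55, adjusted p = 0.00693). Both genes thus lay between the epithelium and muscle. Lama1 stood at 13.15, 37.8, 15.03, 25.6 and 13.6 CPM, above the epithelium by 5.00 (SE 1.36, adjusted p = 0.0371). Col15a1 stood at 3.20, 2.14, 1.82, 1.87 and 2.89 CPM and Frem1 at 5.70, 25.4, 7.38, 8.97 and 8.82 CPM, against 3 counts or fewer in each epithelium library, so no fold is given for them.

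Lama5, Lamb2, Col4a5, Dag1 and Frem2 were lower in the whole trachea than in the sorted epithelium. Lama5 stood at 20.4, 34.55, 12.09, 39.3 and 31.8 CPM, below the epithelium (-2.27, SE 0.46, edgeR adjusted p = 0.0105) and above chondroblasts (4.05, SE 0.65, adjusted p = 0.00611). Col4a5 stood at 36.2, 30.01, 24.45, 36.7 and 19.96 CPM, with a difference of -1.60 (SE 0.24, adjusted p = 0.00198) from the epithelium. Every trachea was below every epithelium library for both genes. Dag1 stood at 111, 125, 74.7, 131.5 and 52.65 CPM (-1.23, SE 0.30, adjusted p = 0.0262 against epithelium). Frem2 stood at 33.6, 50.1, 26.3, 26.6 and 26.5 CPM and was below both the epithelium (-1.72, SE 0.30, adjusted p = 0.00466) and muscle (-1.28, SE 0.30, adjusted p = 0.0245). Neither gene overlapped the epithelium. Npnt, at 45.9 to 93.2 CPM, exceeded muscle by 1.93 (SE 0.34, adjusted p = 0.00698) and chondroblasts by 2.20 (SE 0.35, adjusted p = 0.00611). Itga6 stood at 37.6, 19.75, 30.8, 38.15 and 29.5 CPM, above muscle by 2.16 (SE 0.58, adjusted p = 0.0418), and Itga3, at 12.4 to 26.1 CPM, exceeded chondroblasts by 2.61 (SE 0.55, adjusted p = 0.0238).

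The remaining genes called against muscle were all lower in the trachea. Col4a1 stood at 216, 265, 163, 209.7 and 91.3 CPM (-1.43, SE 0.33, edgeR adjusted p = 0.0230) and Col4a2 at 115, 132, 89.1, 125 and 60.9 CPM (-1.63, SE 0.30, adjusted p = 0.00842). Lamc1 stood at 45.95, 56.55, 38.5, 42.1 and 41.1 CPM (-1.63, SE 0.26, adjusted p = 0.00396). Hspg2 stood at 19.5, 30.9, 15.03, 19.5 and 16.9 CPM (-1.65, SE 0.34, adjusted p = 0.0128). In each of these 4 genes every trachea lay below both muscle libraries. The share of all genes in which the tracheas did not overlap a single sorted population was not counted. Agrn stood at 92.6, 89.2, 83.9, 84.5 and 61.0 CPM (-1.44, SE 0.24, adjusted p = 0.00445) and Itgb1 at 585, 501, 600.3, 504 and 335 CPM (-1.07, SE 0.23, adjusted p = 0.0179), also below both muscle libraries.

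Lamb2 (chromosome 9, 108479736 to 108490530, plus strand) was the only 1 of the 34 called in the same direction against all 3 populations, where 0.448% of all genes were called below and 0.167% above each. It stood at 88.2, 110.2, 69.4, 69.1 and 38.9 CPM in control tracheas A to E, and at 184.0 to 318 CPM in the sorted controls. The groups did not overlap, which also held for Col4a5, and 1.88% of all genes had every E11.5 control below every sorted control. The differences were -1.28 (SE 0.26, edgeR adjusted p = 0.0114) against epithelium, -1.98 (SE 0.26, adjusted p = 0.00122) against muscle and -1.48 (SE 0.26, adjusted p = 0.0103) against chondroblasts. With the later epithelium library or either chondroblast library left out, 1 of the 3 differences missed the threshold, with adjusted p of 0.0675, 0.0515 and 0.0963.

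Col18a1 showed the reverse, at 461, 268, 267, 445 and 240.4 CPM in control tracheas A to E and 10.6 to 103 CPM in the sorted controls. No sorted library reached the lowest trachea. It passed against muscle (3.10, SE 0.62, edgeR adjusted p = 0.0118) and missed against epithelium (1.74, SE 0.57, adjusted p = 0.0676) and chondroblasts (2.27, SE 0.59, adjusted p = 0.0561). Lamc3 (5.47 to 19.3 CPM against 0 to 2.76 CPM), Col4a3 (0.856 to 6.80 CPM against 0 to 0.719 CPM) and Frem1 (5.70 to 25.4 CPM against 0 to 5.31 CPM) also did not overlap, as did 4.26% of all genes with the E11.5 controls on top. Lamc3 made up 13.4% to 30.8% of the gamma chain RNA per kilobase in the E11.5 controls. Endothelial markers summed to 183 to 433 CPM in the E11.5 controls and 2.49 to 133 CPM in the sorted controls, with 9 of 9 at 1 CPM or more in each trachea. The handling genes summed to 235 to 2628 CPM and 2953 to 14040 CPM in the same order, and the part of either list in these differences was not tested. Of the 98 other pathway genes tested, 18, 0 and 1 were higher at E11.5 than epithelium, muscle and chondroblasts, and 8, 33 and 23 were lower. Over all genes, 7.43%, 4.33% and 1.9% were higher and 5.23%, 4.96% and 2.53% lower, in the same order.

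For the Wnt5a mutants, the question was whether loss of this Wnt ligand from the mesenchyme changed the basement membrane genes of the E11.5 trachea. edgeR and DESeq2 each called 0 of 34 genes, with 0.0136% of the 14663 genes tested called by edgeR. At an unadjusted p under 0.05, 0 were higher, where 1.71% of all genes were, and 4 were lower (Npnt, Fras1, Itga3 and Col4a4), where 2.87% were. With the added demand of a fold change over 1.5, 3 were lower (Npnt, Itga3 and Col4a4), where 2.53% of all genes were, and 0 were higher, where 1.19% were.

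Npnt stood at 58.1, 63.2, 55.1, 93.2 and 45.9 CPM in control tracheas A to E and at 25.4, 30.4, 45.3 and 44.7 CPM in mutants A to D. The highest mutant lay just under the lowest control, and the difference was -0.82 (SE 0.24, edgeR adjusted p = 1.00). Fras1, with 84.1, 86.5, 76.0, 96.99 and 88.1 CPM in controls and 42.1, 70.8, 69.7 and 62.1 CPM in mutants, also did not overlap, with a difference of -0.53 (SE 0.17, adjusted p = 1.00). These were the only 2 of the 34 genes with all mutants below all controls, as in 0.436% of all genes tested, and 0 had all mutants above (0.825%). Itga3 overlapped, at 15.0, 19.8, 12.4, 26.1 and 16.9 CPM in controls and 12.1, 8.37, 14.5 and 13.2 CPM in mutants, with a difference of -0.62 (SE 0.26). Epithelial markers summed to 286 to 497 CPM in controls and 377.2 to 871 CPM in mutants, with overlap, and their part in these differences was not tested. Col4a4 stood at 0.306 to 4.63 CPM in controls and 0.165 to 0.873 CPM in mutants, near the floor of 3 counts, and at or under 0.458 CPM per kilobase in every E11.5 library, so it would not meet the level that the study also asked of a gene.

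Mutant library A stood apart. Its 34 genes summed to 1238 CPM, against 2160 to 2630 CPM in mutants B to D and 1718 to 2812 CPM in the controls. In that library Lamb2 stood at 15.8 CPM (95.9 to 131 CPM in the other mutants), Nid2 at 29.6 CPM (113 to 137 CPM) and Col18a1 at 76.2 CPM (244 to 314 CPM). Its epithelial markers summed to 871 CPM against 377.2 to 509 CPM in the other mutants, and its glial and neuronal markers to 514 CPM against 59.96 to 156 CPM, and their part in the low levels was not tested. Over the 34 genes, 25 differences lay below 0 with a median of -0.20, against -0.02 over all genes tested. Without mutant A, 18 lay below 0 and the median was -0.06, with 3 genes higher and 3 lower at an unadjusted p under 0.05 (6.41% of all genes in either direction), while Npnt remained at -0.69 (SE 0.24) and Fras1 at -0.39 (SE 0.13). Of 98 other pathway genes tested, edgeR called 0, and at an unadjusted p under 0.05 2 were higher and 1 lower, against 1.71% and 2.87% of all genes.

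**Figure D4:**
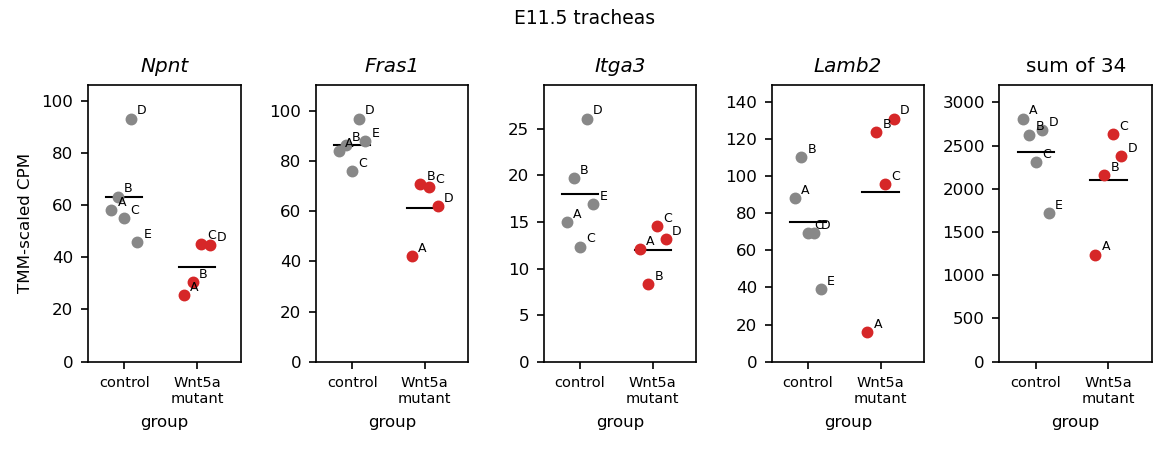
Npnt, Fras1, Itga3, Lamb2 and the sum of all 34 genes in the 5 control (grey) and 4 Wnt5a mutant (red) E11.5 tracheas, as TMM-scaled CPM, with letters for the libraries and bars for the group means. The mutant points of Npnt and Fras1 lie below every control, and mutant A is lowest in the sum at 1238 CPM.

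The last comparison asked whether chondroblasts without Notum, an enzyme that inactivates Wnt ligands, differed in these genes at E13.5. Of the 34 genes, 30 passed the filter, and edgeR called 0, as it called 0% of the 14120 genes tested, of which 1762 had an unadjusted p under 0.05. DESeq2 called 526 genes (3.73%), among them Agrn and Itga1. At an unadjusted p under 0.05, Agrn and Itga1 were higher and Nid1 was lower, each by over 1.5-fold, cutoffs that 5.51% of all genes passed as higher and 2.9% as lower.

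Agrn (chromosome 4, 156165290 to 156197488, minus strand) stood at 162 and 134 CPM in the earlier and later control and at 279.8, 313 and 237 CPM in mutants A to C. Every mutant lay above both controls, by 0.91 (SE 0.16) on the log2 scale, with an adjusted p of 0.200 by edgeR and 3.27e-05 by DESeq2. Itga1 stood at 41.7 and 22.1 CPM in controls and 67.7, 72.7 and 63.3 CPM in mutants, also without overlap, with a difference of 1.10 (SE 0.27) and an adjusted p of 0.266 by edgeR and 0.0132 by DESeq2. Nid1 stood at 256 and 132 CPM in controls and 127, 103 and 133 CPM in mutants, so the later control lay among the mutants. Nid2 had both controls, 338 and 252 CPM, above the mutants at 251, 218 and 221 CPM, by the narrowest margin for mutant A, with a difference of -0.35 (SE 0.14, edgeR adjusted p = 0.402).

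All 3 mutants carry the later date and only 1 control does. With the date as a term, the earlier control no longer weighs on the difference, and edgeR called 6 genes, Agrn, Itga1, Itga7, Lama1 and Lamc3 as higher and Itgb4 as lower. The same fit called 18.4% of all genes tested, a share close to that of the 6 among 30 genes. Agrn then differed by 1.03 (SE 0.18, adjusted p = 0.0159) and Itga1 by 1.61 (SE 0.19, adjusted p = 0.00671). The comparison then rests on 1 control library, in which Itga7, Lama1 and Lamc3 were at 3 counts or fewer. Itgb4 stood at 8.07 CPM in that library and at 0.971 CPM in the earlier control. The mutants lay between them, at 1.58, 2.60 and 1.23 CPM in A to C. Without the later control, edgeR called Nid1 alone.

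By order, 5 of the 30 genes tested had all mutants above both controls (Hspg2, Agrn, Col18a1, Itga1 and Itga7), against 17.2% of genes tested, and 5 had all mutants below (Lamb1, Col4a1, Nid2, Col17a1 and Frem1), against 16.4%. Macrophage markers summed to 165 and 260.1 CPM in controls and 309 to 475 CPM in mutants with 7 of 7 at 1 CPM or more in each library, endothelial markers to 62.0 and 133 CPM against 60.04 to 103 CPM, and glial and neuronal markers to 208 and 321 CPM against 280.4 to 363 CPM. Their part in the levels of Agrn and Itga1 was not tested. The laminin alpha chain make-up stayed Lama4-rich, with 83.3% to 90.8% in the mutants. Of 97 other pathway genes tested, edgeR called 0, and at an unadjusted p under 0.05 12 were higher and 10 lower. Over all genes tested, 12.5% had such a p in either direction.

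**Figure D5:**
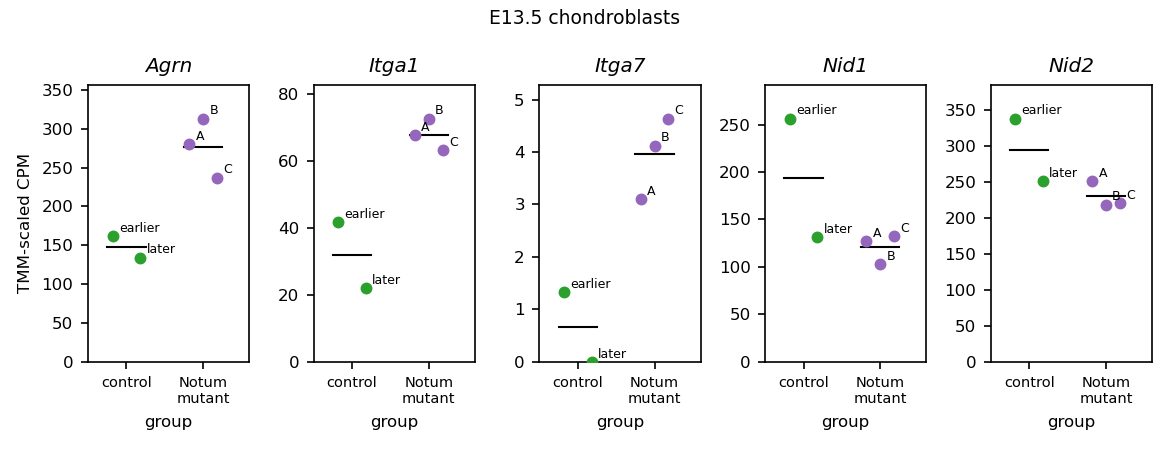
Agrn, Itga1, Itga7, Nid1 and Nid2 in the 2 control (green, marked by date) and 3 Notum mutant (purple, lettered) chondroblast libraries, as TMM-scaled CPM, with bars for the group means. The 3 mutants lie above both controls for Agrn, Itga1 and Itga7, and the later control lies among the mutants for Nid1.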

How the data were processed

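The authors deposited expected counts, which need not be whole, for 47248 entries named by gene symbol in 22 columns, without normalization. Of the values used, 56% were fractional. The submitters' processing notes name Partek, limma and mm10, and the paper names DESeq2 and Cufflinks; the aligner and counting tool are not given in the sources used here. RNA was amplified from small inputs without molecular identifiers, so floors cover counting error only. Of the 22 columns, 18 matched a group by name and 4 were not used. No pair of libraries of a group agreed within sampling noise. Columns of 2 Notum mutants carry the same number, and whether they share a litter is not stated. The column read as earlier epithelium carries the names of both sorting labels and was assigned by elimination. Where the labels list separate samples, p-values measure the spread between them, which may be technical.

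Entries were summed per symbol and rounded, with 0 blank names. A gene entered a fit when over 50% of the libraries of any group in it reached 1 CPM. The test was edgeR 4.0.16 (R 4.3.3) with TMM and the quasi-likelihood test, 2-sided, with Benjamini-Hochberg adjustment. SE is the size of the log2 fold change over the square root of F. The second count, at an unadjusted p under 0.05 with a fold change over 1.5, leaves out the FPKM level that the study also required. The sorted controls, the E11.5 controls with the sorted controls, the Wnt5a tracheas and the Notum chondroblasts were 4 fits. The script was tested on simulated data. Exon lengths and positions come from GENCODE M21 on GRCm38, promoters from RefSeq. The members and lists were chosen with earlier results of these data known. All 34 members are accounted for, those called with values per library, and other pathway genes were named up to 3 per direction by smallest p.

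The E11.5 column names share the numbers 7, 13, 17 and 18 between a control and a mutant. Deviations from the group means of same-numbered libraries correlated at r = 0.53, 0.19, 0.14 and 0.10 for these numbers across genes, all above the 0.1 taken as the mark of a pair. Of the pairs with unlike numbers, control E (16) and mutant A (17) reached r = 0.22, above 3 of these 4. A fit with the number as a block was run beside the unblocked one. Alternatives were DESeq2 1.42.0, its size factors, no filter, a minimum of 10 counts, 18 libraries in 1 fit, the date or number as a block, and leaving out each library.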

Additional observations from a re-analysis of the deposited data

Results flagged for a closer look

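Levels of the 34 genes in the E11.5 groups were checked for a library far from the rest of its group by Dixon's ratio, in 66 sets of values with a mean of at least 1 CPM, of which chance marks about 5%. There were 5. In control B, Frem1 reached 25.4 CPM (next 8.97 CPM) and Hspg2 30.9 CPM (next 19.5 CPM). In mutant D, Lamc3 reached 19.8 CPM (next 6.67 CPM). Control B and mutant D carry the same column number, 7, and Frem1 (25.8 CPM) and Hspg2 (35.0 CPM) were also highest among the mutants in mutant D, and Lamc3 (19.3 CPM) among the controls in control B. Genes induced by handling summed to 2628 and 3458 CPM in these 2 libraries and to 185 to 460 CPM in the other 7, and their part was not tested. In control E, the library with the lowest total, Col4a3 was high at 6.80 CPM (next 1.74 CPM) and Agrn low at 61.0 CPM (next 83.9 CPM).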

How the results depend on the processing

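Of 210 refits of the differences named for single genes, 184 kept their direction and side of the threshold, 16 lost the call, 10 gained one and 0 changed sign. Genes called between epithelium and mesenchyme were 6 by edgeR, 15 by DESeq2, 17 without a filter, 20 with 18 libraries in 1 fit, and 3 to 11 with 1 library left out. The same 4 fits called 5.14%, 14.9%, 9.57% and 25.4% of all genes. Between muscle and chondroblasts they were 0, against 4, 6 and 4 under the same 3 alternatives (1.86%, 1.51% and 3.47% of all genes). Against each sorted population, 1 gene was called at E11.5, 3 by DESeq2 (Lamb2, Col18a1 and Lamc3), and Col18a1 in place of Lamb2 with 18 libraries in 1 fit. Against epithelium, muscle and chondroblasts singly, edgeR called 12.7%, 9.29% and 4.44% of all genes. DESeq2 called 23.8%, 19.2% and 12.5%, and the fit of 18 libraries 23.3%, 18.1% and 10.3%. For these 2 alternatives the share called against all 3 populations together was not counted. The Lamb2 call also depended on single libraries, as given above. In Wnt5a mutants the count was 0, and 3 at an unadjusted p under 0.05 with a fold change over 1.5. In Notum mutants it was 0, 2 by DESeq2, 6 with the date as a term (18.4% of all genes), 3 at an unadjusted p under 0.05 with a fold change over 1.5, and 0 to 6 with 1 library left out (6 without the earlier control, a fit that called 17.5% of all genes). The cause of these shifts was not tested.

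With the column number as a replicate block, edgeR called 0 of the 34 genes in the Wnt5a mutants, so the pairing changed no call at an adjusted p, and Npnt differed by -0.90 (SE 0.26). At an unadjusted p under 0.05 with a fold change over 1.5, 2 genes were lower in place of 3 (Col4a4 no longer among them). Without the demand on fold change, 4 were lower and 0 higher, where 4.45% of all genes passed in either direction. The median of the 34 genes was -0.33 in place of -0.20, and over all genes tested it was -0.03 in place of -0.02.

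With 2 libraries of each sorted population, the biological coefficient of variation was 66.8% in the sorted fit, against 34% in the Wnt5a fit and 35.9% in the Notum fit. Its part in the number of calls was not tested.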

Other observations

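Of the 9 skeletal muscle markers, 2 regulators, chosen after their values were seen, did not overlap between the E11.5 groups. Over all genes tested, 0.825% had all mutants above all controls. Apart from these 2 and Ttn, the markers are given only in their sum. Myog stood at 6.65 to 20.2 CPM in the controls and 60.8 to 85.3 CPM in the Wnt5a mutants, and Myod1 at 2.89 to 5.41 CPM and 13.2 to 18.2 CPM. The sum of all 9 markers overlapped, at 61.55 to 187 CPM in the controls and 161 to 214 CPM in the mutants, as did Ttn, at 6.07 to 76.2 CPM and 13.3 to 33.96 CPM. Itga7, the laminin receptor alpha chain of skeletal muscle, also overlapped, at 0.434 to 2.56 CPM in the controls and 0.600 to 1.21 CPM in the mutants. Lama2, the alpha chain of muscle laminin, stood at 13.52 to 25.8 CPM in the controls and 11.8 to 41.1 CPM in the mutants.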
